A study of Homo sapiens with 6 samples.

Results

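The m6A machinery of KYSE-150 cells was examined through 10 genes: the writers METTL3, METTL14, WTAP, VIRMA and ZC3H13, the erasers ALKBH5 and FTO, and the readers YTHDF1, YTHDF2 and YTHDF3. They were taken by gene name from a table of 50868 genes, in which each name occurred once, and all 10 had enough counts to be among the 14250 genes tested. RNA was sequenced from KYSE-150, an established line of human oesophageal squamous cell carcinoma, in 3 siZNF514 libraries, given in the labels as knockout of ZNF514 by siZNF514, and 3 nc libraries, the control that the series text calls wild type. By its name siZNF514 is a small interfering RNA, a reagent that reduces a transcript and leaves the gene in place, and the sources do not tell what nc cells received. Nothing in the labels tells separate cultures from repeat libraries of 1 culture, so the spread behind each p-value may be technical. The series title concerns ZNF514 in proliferation, migration and invasion of oesophageal cancer cells, and m6A itself was not measured. Replicate 3 of siZNF514 stood apart in the fibroblast transcripts COL3A1 (112 counts), COL1A2 (49) and DCN (33) and the leukocyte transcript LYZ (49). Each was at 0 in the other siZNF514 libraries and at 7 or fewer in each nc library. The fibroblast marker LUM had 35 counts in siZNF514 replicate 3, 7 and 5 in the other siZNF514 libraries, and 13 to 21 in nc. PDGFRB had 3 counts in siZNF514 replicate 3, against 3 to 18 in nc. The leukocyte marker CD68 had 725 counts in that library, against 694 to 964 in nc, and PTPRC and CD3E had 5 and 1. Without that library METTL3, WTAP, VIRMA, FTO and YTHDF1 still passed, with log2 fold changes of 0.90, -0.63, -0.57, -0.53 and -0.39. YTHDF2 passed as well (-0.51), and METTL14 (0.29), ZC3H13 (0.04), ALKBH5 (-0.07) and YTHDF3 (0.05) did not.

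N6-methyladenosine (m6A) is a methyl group placed on adenosines inside messenger RNA. A complex built around METTL3 and METTL14 writes it in the nucleus, the dioxygenases FTO and ALKBH5 can remove it, and proteins with a YTH domain bind it and steer the transcript to translation or decay. In squamous carcinomas and other tumours these genes are studied because the mark changes how long transcripts last and how well they are translated.

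In siZNF514 libraries the catalytic writer METTL3 rose 1.81-fold, while the writer subunits WTAP and VIRMA, the eraser FTO and the reader YTHDF1 fell to between 64.8% and 75.9% of nc. METTL14, ZC3H13, ALKBH5, YTHDF2 and YTHDF3 did not pass the test. Thus 5 of the 10 genes passed an adjusted p of 0.05 (quasi-likelihood F test of edgeR, Benjamini-Hochberg adjusted over all tested genes), 1 higher and 4 lower. Among all tested genes 50.6% passed, 25.5% higher and 25.1% lower, so the number of m6A genes that passed was near the background. Scaled by total counts alone, 7 of the 10 passed, 1 higher and 6 lower, and the genes that passed over the whole table were split into 2493 higher and 4775 lower, against 3629 higher and 3583 lower with TMM scaling. Of the 10, 3 also changed by 1.5-fold or more, namely METTL3, WTAP and VIRMA, against 23% of all tested genes. Values of the groups did not overlap for 7 of the 10 genes, METTL3 higher and 6 lower, against 60.3% of all tested genes, 30% higher and 30.3% lower. Over the 10 genes the log2 fold change had a median of -0.26, and over all tested genes it was -0.01. The median size of the change, whatever its direction, was 0.40 for the 10 genes and 0.35 for all tested genes.

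**Figure D1:**
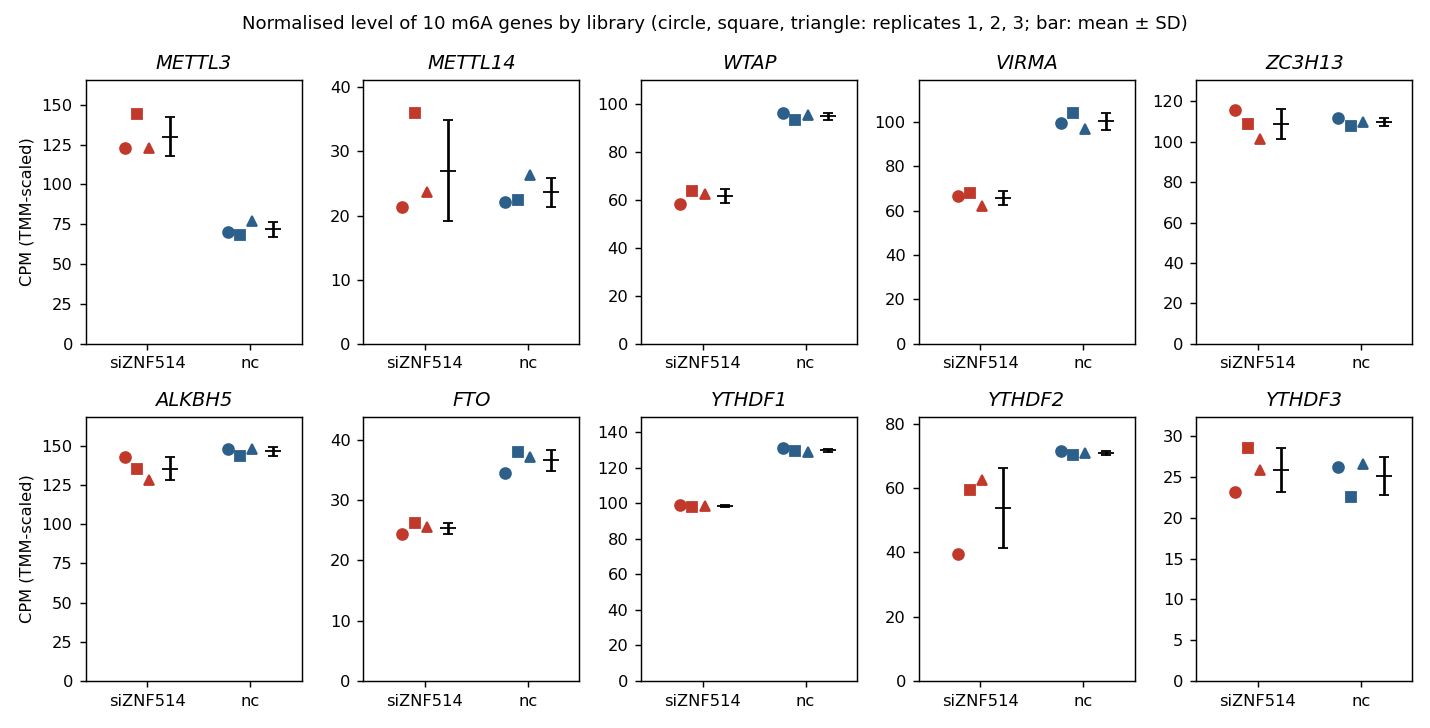
Normalised level of each of the 10 genes, in CPM (counts scaled to library size, with TMM factors that adjust for RNA composition), in every siZNF514 (red, left) and nc (blue, right) library, with the mean and SD of the 3 libraries beside them. METTL3 lies between 123 and 144 CPM in siZNF514, above its 3 nc values, and WTAP, VIRMA, FTO and YTHDF1 lie below theirs, while the METTL14, ZC3H13 and YTHDF3 values of the groups overlap.

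The libraries held 13262363 to 14318909 counts in siZNF514 and 12175259 to 13696180 in nc, so 1 count was worth 0.0701 to 0.0789 CPM. ZNF514 itself had 64, 82 and 63 counts in siZNF514 and 239, 273 and 261 in nc. Of 10 epithelial markers, 9 were tested, 3 rose and 5 fell, so 88.9% passed against 50.6% of all tested genes. Their summed FPKM (counts per length and library total) was 490 to 529 in siZNF514 and 425 to 444 in nc. Those that rose were the simple keratins KRT8 (0.58) and KRT18 (0.77), which made up most of the sum, and EPCAM (0.41). Those that fell were the squamous markers KRT6A (-2.16), KRT14 (-1.23), DSG3 (-0.69), KRT5 (-0.52) and DSC3 (-0.43). TP63 did not pass (-0.17), and SOX2 had 3 counts or fewer in each library. Summed leukocyte markers were 10.0 to 12.2 FPKM in siZNF514 and 12.3 to 15.1 in nc, nearly all of it CD68, with CD3E and PTPRC near 0. Summed fibroblast markers were 0.083 to 1.70 FPKM in siZNF514 and 0.284 to 0.544 in nc, and summed endothelial markers 0.153 to 0.193 in siZNF514 and 0.274 to 0.295 in nc. The part of these markers in the m6A gene results was not tested. In bulk RNA, fewer cells of a kind and less RNA per cell cannot be told apart.

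To place the genes beside their regulatory sequence, the 250 bases before each RefSeq transcription start (GRCh38.p14) were searched on both strands for the motif letters of ETS factors (CCGGAAG), the CCAAT box (CCAAT), the GC box (GGGCGG) and the E-box (CACGTG). The promoter table matched 8 of the 10 genes with 10 windows, WTAP and YTHDF2 having 2 each, while VIRMA and YTHDF3 are only named. The promoters of METTL3 and METTL14 are shown because METTL3 passed the test and METTL14, its partner in a heterodimer, did not. That of YTHDF1 is shown because its 3 siZNF514 values were the tightest among the genes that fell. Capitals mark motif matches, and only bases outside the exons of the gene in GENCODE release 29 are printed.
METTL3, chr14:21511376-21511590, minus strand: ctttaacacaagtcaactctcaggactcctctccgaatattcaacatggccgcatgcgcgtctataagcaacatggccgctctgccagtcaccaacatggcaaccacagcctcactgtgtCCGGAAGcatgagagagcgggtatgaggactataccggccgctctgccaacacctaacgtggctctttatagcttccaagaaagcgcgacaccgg
METTL14, chr4:118685142-118685367, plus strand: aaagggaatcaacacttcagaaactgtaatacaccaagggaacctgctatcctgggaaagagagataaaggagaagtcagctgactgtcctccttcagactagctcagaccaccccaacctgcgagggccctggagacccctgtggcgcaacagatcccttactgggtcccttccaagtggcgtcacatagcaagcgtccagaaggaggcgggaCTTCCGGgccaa
YTHDF1, chr20:63216235-63216381, minus strand: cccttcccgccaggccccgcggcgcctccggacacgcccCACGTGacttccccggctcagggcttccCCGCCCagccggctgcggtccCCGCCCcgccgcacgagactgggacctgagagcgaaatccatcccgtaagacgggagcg
The ETS letters were found in 1 window each of METTL3, METTL14 and ZC3H13, 3 of 10 windows, against 8.52% of 35116 promoters of the same length. The GC box letters were found in 6 of 10 windows, those of WTAP, ALKBH5, YTHDF1 and YTHDF2, against 42.6% of promoters. CCAAT was present in 4 of 10 windows and in 32.01% of promoters, and CACGTG in 1 of 10, that of YTHDF1, and in 6.35% of promoters. The YTHDF1 window held 40 CpG dinucleotides, more than 97.8% of promoters held, while METTL3 held 13 and METTL14 held 11, with a median of 11 over all promoters. These are letters in a window, chosen for display with the expression values known, and say nothing of whether a factor binds.

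METTL3 (ENSG00000165819; GRCh38 chromosome 14, 21498133 to 21511375, minus strand) is the catalytic subunit that transfers the methyl group. It had 123, 144 and 123 CPM in siZNF514, against 70.1, 68.2 and 77.0 CPM in nc. Every siZNF514 library lay above every nc library. The log2 fold change was 0.86 (SE 0.08, 95% interval 0.67 to 1.05) (edgeR adjusted p = 0.000177). Of all tested genes, 3.49% had a higher log2 fold change. METTL3 overlaps TOX4 on the opposite strand over 1043 bases. TOX4 had a log2 fold change of -0.21 (SE 0.16) and did not pass. Its counts were 738, 1012 and 845 in siZNF514 and 869, 970 and 1183 in nc.

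METTL14 (ENSG00000145388; chromosome 4, 118685368 to 118715433, plus strand) binds METTL3 and holds the RNA substrate without methylating it itself. Its levels were 21.3, 36.0 and 23.7 CPM in siZNF514 and 22.1, 22.4 and 26.3 CPM in nc, so the groups overlapped and siZNF514 replicate 2 stood above the rest. The 469 counts of that library gave an exact Poisson 95% interval of 32.8 to 39.4 CPM, apart from the 18.8 to 24.0 CPM of siZNF514 replicate 1, for counting error only. This gave a log2 fold change of 0.19 (SE 0.20, 95% interval -0.27 to 0.66; edgeR adjusted p = 0.447). Without siZNF514 replicate 2 it was -0.06.

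The ratio of METTL3 to METTL14 within a library does not depend on how libraries are scaled. On deposited FPKM it was 4.76, 3.30 and 4.27 in siZNF514 and 2.61, 2.50 and 2.41 in nc. The lowest siZNF514 ratio lay above the highest nc ratio. The geometric means were 4.06 in siZNF514 and 2.51 in nc, a difference of 0.70 on the log2 scale (exact two-sided permutation p = 0.1, the smallest that 3 against 3 libraries can give). Over the 5 ratios and shares compared, the Benjamini-Hochberg value of this exact permutation test was 0.167. The size of the ratio, though not its log2 difference between groups, rests on gene length. Deposited FPKM implied 10509 bases for METTL3 and 8657 for METTL14. Their longest principal transcripts in GENCODE release 29 have 2015 and 6669. Per principal transcript length the mean levels of METTL3 and METTL14 were 61.6 and 3.87 in siZNF514 and 37.2 and 3.69 in nc.

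WTAP (ENSG00000146457; chromosome 6, 159725585 to 159756319, plus strand) anchors the writer in nuclear speckles. It had 58.0, 63.6 and 62.5 CPM in siZNF514 and 96.0, 93.1 and 95.1 CPM in nc, with no overlap between the groups. WTAP had a log2 fold change of -0.63 (SE 0.05; edgeR adjusted p = 0.000113). Its whole locus of 30735 bases lies within SOD2 on the opposite strand, and the sources do not tell whether counting used strand. SOD2 had 949, 1026 and 999 counts in siZNF514 and 1018, 1006 and 966 in nc, with a log2 fold change of 0.00 (SE 0.06). AL158050.1, which the deposited descriptions give as a WTAP pseudogene, had 32 counts over the siZNF514 libraries and 55 over the nc libraries.

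VIRMA (ENSG00000164944; chromosome 8, 94487693 to 94553529, minus strand) is a large scaffold subunit of the writer complex. Its levels were 66.6, 68.1 and 62.2 CPM in siZNF514 and 99.8, 104.3 and 97.0 CPM in nc. The groups lay apart, with a log2 fold change of -0.61 (SE 0.06; edgeR adjusted p = 0.000156). WTAP and VIRMA therefore fell by nearly the same amount, to 64.8% and 65.4% of nc, and 16.0% and 16.5% of tested genes had a lower log2 fold change. ZC3H13 (ENSG00000123200; chromosome 13, 45954465 to 46052759, minus strand), which keeps the complex in the nucleus, had 116, 109 and 101 CPM in siZNF514 and 112, 108 and 109.8 CPM in nc. Its groups overlapped, and the 95% interval of its log2 fold change ran from -0.15 to 0.12 around -0.01 (edgeR adjusted p = 0.853).

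Levels of METTL3 were also set beside those of its partners WTAP and VIRMA. The deposited FPKM of METTL3 was 1.98, 2.12 and 1.84 times that of WTAP in siZNF514, against 0.684, 0.687 and 0.759 times in nc. Against VIRMA it was 2.51, 2.88 and 2.69 times in siZNF514 and 0.956, 0.890 and 1.08 times in nc. METTL3 and VIRMA thus overlapped in nc. Per principal transcript length METTL3 lay above WTAP and VIRMA in both groups, at 61.6 against 16.0 and 9.61 in siZNF514 and at 37.2 against 27.0 and 16.0 in nc. These ratios were chosen after the values were seen and carry no test.

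**Figure D2:**
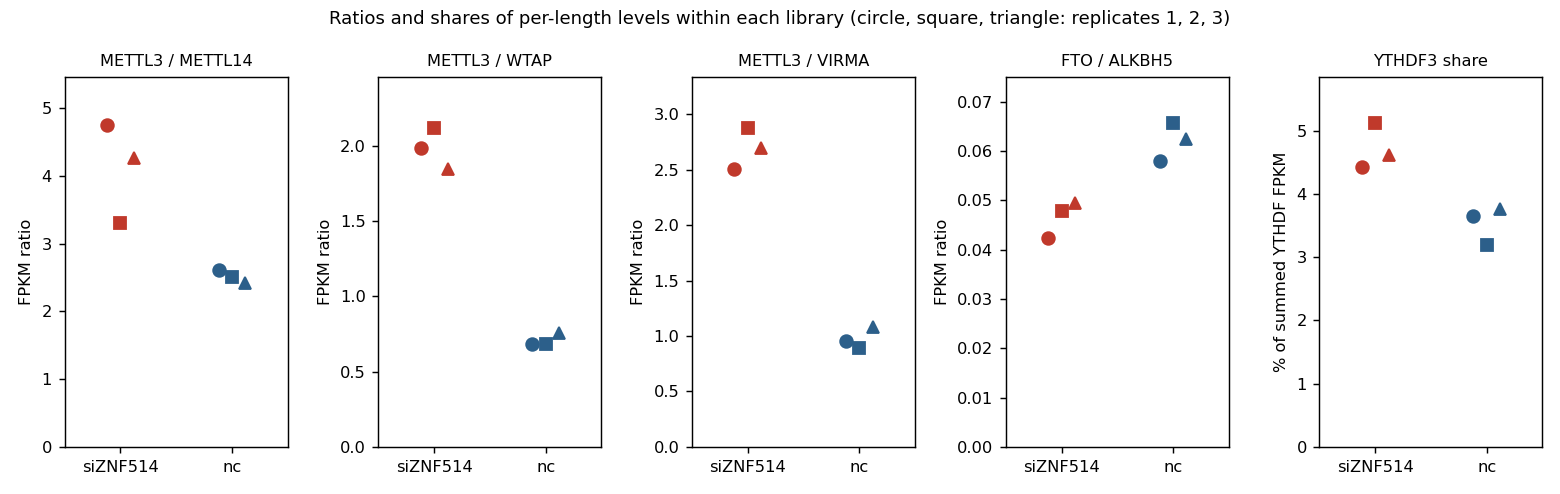
Ratios of deposited FPKM between members of the m6A machinery, and the share of YTHDF3 in the summed YTHDF1, YTHDF2 and YTHDF3 FPKM, within each siZNF514 (red, left) and nc (blue, right) library. In each of the 5 panels the siZNF514 and nc values do not overlap, but the panels are not the 5 comparisons that were tested. METTL3 to WTAP and METTL3 to VIRMA were chosen after the values were seen. The tested YTHDF1 and YTHDF2 shares, whose groups overlap, are not shown. METTL3 to METTL14 is 3.30 to 4.76 in siZNF514 and 2.41 to 2.61 in nc.

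Of the erasers, FTO (ENSG00000140718; chromosome 16, 53703963 to 54121941, plus strand), which removes the methyl group from m6A and from the cap-adjacent form m6Am, had 24.3, 26.1 and 25.5 CPM in siZNF514 and 34.5, 38.0 and 37.2 CPM in nc. All siZNF514 values lay below all nc values. FTO had a log2 fold change of -0.53 (SE 0.07; edgeR adjusted p = 0.000843). Genes nested in FTO were listed at 16 counts over siZNF514 and 22 over nc for FTO-IT1, and at 2 counts or fewer for the rest.

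ALKBH5 (ENSG00000091542; chromosome 17, 18183078 to 18209954, plus strand), the nuclear m6A demethylase, had 143, 135 and 128 CPM in siZNF514 and 148, 143.4 and 148 CPM in nc. Its groups did not overlap, but the highest siZNF514 value, 142.9 CPM, lay just under the lowest nc value, 143.4 CPM. The log2 fold change was -0.11 (SE 0.05, 95% interval -0.24 to 0.01; edgeR adjusted p = 0.110). With total counts alone in place of TMM factors it passed at -0.24 (edgeR adjusted p = 0.00885, range over its settings 0.00885 to 0.301). Under that scaling the median of all tested genes moved from -0.01 to -0.14.

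The ratio of FTO to ALKBH5 on deposited FPKM was 0.0423, 0.0479 and 0.0495 in siZNF514, against 0.0579, 0.0658 and 0.0624 in nc. The groups did not overlap, and the mean differed by -0.41 on the log2 scale (exact two-sided permutation p = 0.1, Benjamini-Hochberg value over the 5 comparisons 0.167). Leaving out each library in turn gave -0.46 to -0.35.

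The YTHDF readers are close paralogs that bind m6A in the cytoplasm, YTHDF2 being best known for bringing the CCR4-NOT deadenylase to its targets. YTHDF1 (ENSG00000149658; chromosome 20, 63195429 to 63216234, minus strand), best known for promoting translation, had 99.3, 98.1 and 98.2 CPM in siZNF514 and 131, 129 and 129 CPM in nc. The values were tight and the groups lay apart. YTHDF1 had a log2 fold change of -0.40 (SE 0.04; edgeR adjusted p = 0.000204).

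YTHDF2 (ENSG00000198492; chromosome 1, 28736621 to 28769775, plus strand) had 39.5, 59.5 and 62.5 CPM in siZNF514 and 71.7, 70.4 and 71.1 CPM in nc. All siZNF514 values were below nc, and siZNF514 replicate 1 was far below the others, with an exact Poisson 95% interval of 36.1 to 43.1 CPM against 55.4 to 63.8 CPM for replicate 2. The log2 fold change of -0.40 equalled that of YTHDF1 to 2 decimals, but its SE was 0.16 and it did not pass (edgeR adjusted p = 0.0715). Without siZNF514 replicate 1 it passed at -0.21 (SE 0.06; edgeR adjusted p = 0.0265, range over its settings 0.0258 to 0.142).

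YTHDF3 (ENSG00000185728; chromosome 8, 63168553 to 63212786, plus strand), which works with both paralogs, had 23.1, 28.6 and 25.9 CPM in siZNF514 and 26.2, 22.5 and 26.7 CPM in nc. The groups overlapped. The log2 fold change was 0.04 (SE 0.11, 95% interval -0.22 to 0.30; edgeR adjusted p = 0.767), and it was -0.09 with total counts alone.

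**Figure D3:**
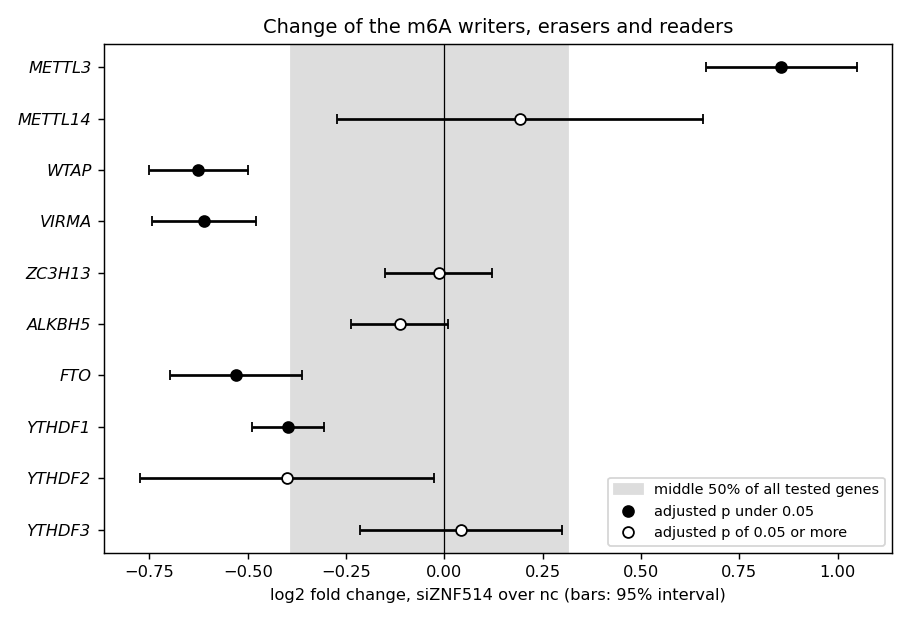
Log2 fold change of each gene, siZNF514 over nc, with its unadjusted 95% interval; filled points passed an adjusted p of 0.05 and the grey band holds the middle 50% of all tested genes. METTL3 lies at 0.86, above the band, WTAP, VIRMA and FTO lie below it, YTHDF1 lies at its lower edge, and YTHDF2 at -0.40 has an interval that ends below 0 yet did not pass after adjustment.

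Within the summed YTHDF FPKM, YTHDF1 held 82.7%, 76.6% and 76.3% in siZNF514 and 79.3%, 79.7% and 79.1% in nc. YTHDF2 held 12.9%, 18.3% and 19.1% in siZNF514 and 17.1%, 17.1% and 17.2% in nc. The groups overlapped for both shares (exact two-sided permutation p = 0.9 and p = 1). For both, siZNF514 replicate 1 lay on the opposite side of the nc values from siZNF514 replicates 2 and 3. YTHDF3 held 4.42%, 5.12% and 4.61% in siZNF514 and 3.64%, 3.18% and 3.75% in nc, and these groups did not overlap (exact two-sided permutation p = 0.1, Benjamini-Hochberg value over the 5 comparisons 0.167). The sizes of these shares rest on gene length: the deposited FPKM implied 17187 bases for YTHDF3, while its longest principal transcript in GENCODE release 29 has 2370. Shares were also taken per length of the longest principal transcript of each gene, a scale added after seeing the data. On that scale YTHDF3 held 18.4% ± 0.919 in siZNF514 and 14.3% ± 1.08 in nc (SD, n = 3 each). YTHDF1 held 50.7% ± 4.90 in siZNF514 and 53.0% ± 0.787 in nc, and YTHDF2 held 30.8% ± 4.86 in siZNF514 and 32.7% ± 0.296 in nc.

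By deposited FPKM the order of levels in siZNF514 was ALKBH5 (28.6 ± 1.71, mean ± SD, n = 3), YTHDF1 (23.9 ± 0.268), METTL3 (11.8 ± 1.08), ZC3H13 (9.03 ± 0.639), WTAP (5.96 ± 0.263), YTHDF2 (5.13 ± 1.17), VIRMA (4.39 ± 0.212), METTL14 (2.98 ± 0.859), YTHDF3 (1.44 ± 0.146) and FTO (1.33 ± 0.0426). Of neighbours in that order, WTAP and YTHDF2, YTHDF2 and VIRMA, and YTHDF3 and FTO overlapped. In nc the order was YTHDF1 (34.3 ± 0.396), ALKBH5 (33.8 ± 0.695), WTAP (10.0 ± 0.186), ZC3H13 (9.95 ± 0.193), YTHDF2 (7.39 ± 0.0898), VIRMA (7.32 ± 0.267), METTL3 (7.12 ± 0.451), METTL14 (2.84 ± 0.273), FTO (2.09 ± 0.0970) and YTHDF3 (1.53 ± 0.141). There YTHDF1 overlapped ALKBH5, WTAP overlapped ZC3H13, and YTHDF2, VIRMA and METTL3 overlapped in turn. METTL3 thus held the third place in siZNF514 and the seventh in nc. The FPKM of METTL3 used a length of 10509 bases, against 2015 for its longest principal transcript. Per principal transcript METTL3 was the first of the 10 in siZNF514 (61.6 ± 5.66) and the third in nc (37.2 ± 2.35), and FTO was last in both.

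The other genes of the pathway moved in both directions. Of 46 listed genes, 45 were tested, 14 rose, 11 fell and 20 did not pass, so 55.6% passed against 50.6% of all tested genes. With total counts alone the split was 10 higher and 14 lower. Their median log2 fold change was 0.08. The list was drawn up with earlier results of these data known.

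Among 8 partners of the writer and other RNA methyltransferases, 3 rose, 2 fell and 3 did not pass (median log2 fold change 0.29). The share that passed was 62.5%, against 50.6% of all tested genes. RBM15B and RBM15 are paralogs that bring the writer to its RNAs, and they moved apart. RBM15B fell to 46.9 ± 1.67 CPM in siZNF514, against 108 ± 3.04 CPM in nc (log2 fold change -1.21, SE 0.05; edgeR adjusted p = 8.64e-06), and RBM15 rose to 36.2 ± 2.68 CPM in siZNF514, against 25.4 ± 1.07 CPM in nc (0.51, SE 0.08; edgeR adjusted p = 0.00177). TRMT112, which stabilises several methyltransferases, and PCIF1, the writer of cap-adjacent m6Am, rose (0.69 and 0.53), and ZCCHC4, which methylates ribosomal RNA, fell (-0.38). The ubiquitin ligase gene CBLL1, a subunit of the writer complex, had a log2 fold change of 0.71 (SE 0.41) that missed the threshold. Its counts were 598, 541 and 528 in siZNF514 and 595, 226 and 197 in nc. Without nc replicate 1 it passed at 1.43 (edgeR adjusted p = 0.000364, range over its settings 0.000364 to 0.397).

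Of 14 other readers and m6A-linked RNA-binding proteins, 13 were tested, 6 rose, 3 fell and 4 missed the threshold (median log2 fold change 0.17). Thus 69.2% passed, against 50.6% of all tested genes. IGF2BP2, which stabilises bound transcripts, rose to 238 ± 9.42 CPM in siZNF514, against 116 ± 4.29 CPM in nc (1.04, SE 0.05; edgeR adjusted p = 1.3e-05). LRPPRC (0.51), FMR1 (0.46) and HNRNPC (0.40) also rose, and PRRC2A (-0.53) and the translation factor gene EIF3A (-0.18) fell. The nuclear YTH reader gene YTHDC1, named outside the rule, fell (-0.45, SE 0.12), with 1168, 871 and 905 counts in siZNF514 and 1290, 1464 and 1325 in nc. It no longer passed when siZNF514 replicate 2 or 3, or nc replicate 2 or 3, was left out, at -0.45 to -0.36. The helicase reader gene YTHDC2, also named outside the rule, rose (0.20, SE 0.05), but it did not pass with total counts alone (0.07) or on FPKM (0.07 and 0.06).

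**Figure D4:**
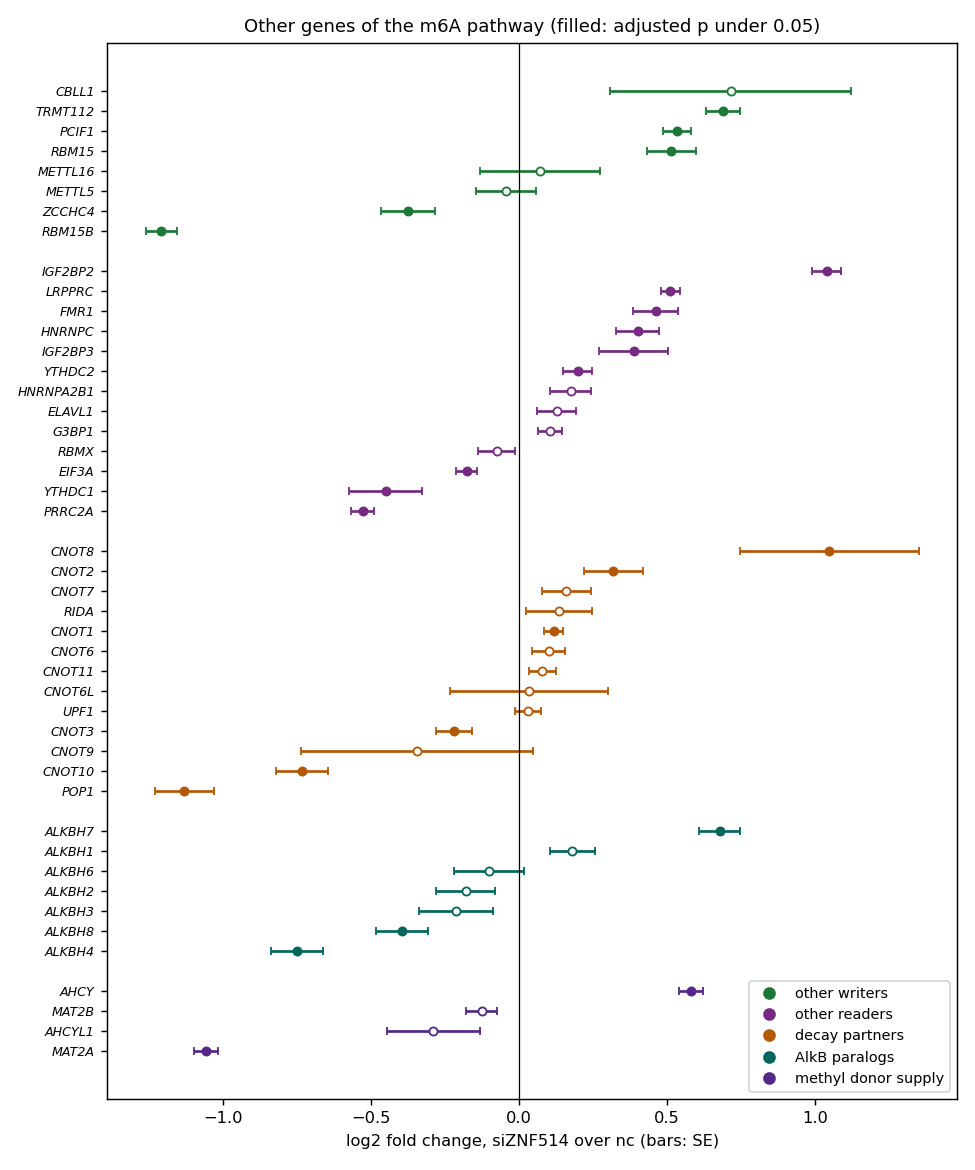
Log2 fold change, siZNF514 over nc, of the 45 tested genes of the m6A pathway outside the 10, grouped by role, with SE; filled points passed an adjusted p of 0.05. MAT2A, POP1 and RBM15B lie below -1 and IGF2BP2 and CNOT8 above 1.

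Of 13 decay partners of YTHDF2, 3 rose, 3 fell and 7 missed the threshold (median log2 fold change 0.08). Here 46.2% passed, near the 50.6% of all tested genes. POP1, a subunit of RNase P and MRP, fell (-1.13, SE 0.10; edgeR adjusted p = 0.000128), and so did the CCR4-NOT subunit gene CNOT10 (-0.73, SE 0.09). CNOT3 (-0.22) fell, and CNOT2 (0.32) and CNOT8 (1.05, SE 0.30) rose. These calls were lost with 1 library left out in 4 of 6 cases for CNOT3 and CNOT8 and in 3 of 6 for CNOT2. CNOT2 also did not pass with total counts alone (0.19) or on FPKM (0.18 and 0.13). With total counts alone CNOT8 passed (0.92), but on FPKM it did not (0.805 and 0.65). CNOT3 did not pass with no filter (-0.20). CNOT8 had 415, 1001 and 994 counts in siZNF514 and 336, 416 and 417 in nc, so siZNF514 replicate 1 lay within the nc range. CNOT1, the scaffold of the complex, rose by 0.12 (SE 0.03) with TMM scaling and was at -0.01 with total counts alone. It did not pass without nc replicate 2 (0.11) or with a mean count minimum of 50 (0.08). With the replicate number as a block, CNOT1, CNOT2 and CNOT3 did not pass (edgeR adjusted p = 0.0508, 0.0550 and 0.0524).

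Among 7 AlkB paralogs of FTO and ALKBH5, 1 rose, 2 fell and 4 missed the threshold (median log2 fold change -0.18). That is 42.9% past the threshold, against 50.6% of all tested genes. ALKBH7 (0.68) rose, and ALKBH4 (-0.75) and the tRNA hydroxylase gene ALKBH8 (-0.40) fell. ALKBH1, ALKBH2 and ALKBH3 did not pass, at 0.18, -0.18 and -0.21.

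The genes listed around the methyl donor S-adenosylmethionine, not all of which supply it, showed 1 rise and 1 fall among 4. Thus 50% passed, near the 50.6% of all tested genes. MAT2A, the enzyme that makes the donor in most tissues, fell to 155 ± 4.73 CPM in siZNF514, against 323 ± 7.83 CPM in nc (-1.06, SE 0.04; edgeR adjusted p = 6.21e-06). AHCY, which clears the product that inhibits methyltransferases, rose to 915 ± 11.1 CPM in siZNF514, against 612 ± 32.1 CPM in nc (0.58, SE 0.04; edgeR adjusted p = 5.24e-05). MAT2B (-0.13) and AHCYL1 (-0.29) did not pass, and AHCYL1 had 1960, 3222 and 3071 counts in siZNF514 and 3220, 3712 and 3231 in nc.

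**Figure D5:**
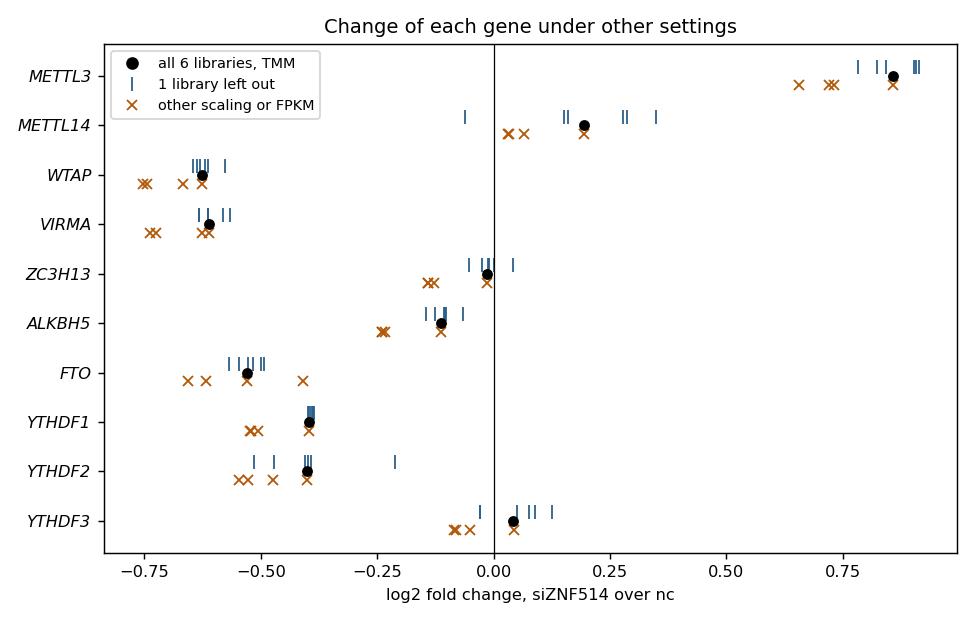
Log2 fold change of each of the 10 genes with all 6 libraries and TMM scaling (black), with 1 library left out (blue bars) and with other scalings or FPKM (orange crosses). METTL3 stays between 0.66 and 0.91 and YTHDF1 between -0.52 and -0.39. METTL14, ZC3H13 and YTHDF3 cross 0, and YTHDF2 moves to -0.21 without siZNF514 replicate 1.

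Across the 14 alternatives, METTL3, WTAP, VIRMA, FTO and YTHDF1 passed in all 14, ALKBH5 in 4 and YTHDF2 in 6, and METTL14, ZC3H13 and YTHDF3 in none. Replicate 1 of siZNF514 had the lowest CPM of its group for YTHDF2, CNOT8 and AHCYL1 and the highest for YTHDC1. It was also lowest for METTL3, METTL14, WTAP, FTO and YTHDF3 and highest for ZC3H13, ALKBH5 and YTHDF1, while for VIRMA it lay in the middle. How often this library was the extreme of its group over all tested genes was not counted. Whether these genes share a cause in that library was not tested.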

How the data were processed

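RNA from 3 siZNF514 and 3 nc libraries of KYSE-150 cells was sequenced on an Illumina instrument, per the labels' protocols. The deposited table holds whole-number counts and FPKM values per gene and library. HISAT2 2.0.4, StringTie 1.3.3b, edgeR and the build hg38 are named, with no roles, per the submitters' processing notes. The authors' deposited FPKM carry a gene length that was recovered here from counts, FPKM and library totals. The deposited counts were tested with edgeR 4.0.16 (R 4.3.3): filterByExpr with a minimum count of 10, TMM scaling, quasi-likelihood F test of group, Benjamini-Hochberg adjustment over 14250 genes, threshold 0.05. The same fit was also run on counts simulated with the means, library sizes and common dispersion of these data. The outcome of that run is not given here. Ratios and shares of FPKM within a library were compared with exact two-sided permutation tests (scipy 1.17.1). Tried as alternatives were a replicate block and each library left out; scaling by DESeq2 size factors or by library totals; no filter or a minimum mean count of 50; and, as other tests, DESeq2 1.42.0 (Wald) and limma 3.58.1 on log2(FPKM + 0.1) and log2(FPKM + 1), with genes under a mean FPKM of 0.1 left out. Intervals on counts are exact Poisson intervals and cover counting error only. The 10 genes and all lists were chosen with earlier results of these data known. Named are the 10 genes, ZNF514 and up to 6 genes of each other list with the smallest p-value, and YTHDC1 and YTHDC2 were added after their values were seen. Promoter sequences are from RefSeq (GRCh38.p14).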

Additional observations from a re-analysis of the deposited data

How the results depend on the processing

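Of the 10 genes, 5 to 7 passed under the 14 alternatives, and METTL3, WTAP, VIRMA, FTO and YTHDF1 passed in each. Under the same alternatives 6310 to 7268 genes passed over the whole table, of 11609 to 25995 tested. Leaving out 1 library gave 6310 to 6563 genes past the threshold, of 14437 to 14696 tested. Among them were 5 to 6 of the 10 and 20 to 26 of the 45 other pathway genes tested. For the METTL3 to METTL14 ratio the differences were then 0.58 to 0.85, and for FTO to ALKBH5 -0.46 to -0.35. The YTHDF3 share differed by 0.989 to 1.34 percentage points. The YTHDF1 share ran from -2.92 to 0.26 percentage points, turning positive without siZNF514 replicate 2 (0.1002) and replicate 3 (0.261), and the YTHDF2 share from -1.51 to 1.58, positive without siZNF514 replicate 1 (1.58). Signs also turned for METTL14 without siZNF514 replicate 2 (leaving out 1 library gave -0.0615 to 0.3476), for ZC3H13 without siZNF514 replicate 3 or nc replicate 1 (-0.0522 to 0.042) and with no filter (0.0057), and for YTHDF3 without siZNF514 replicate 2 or nc replicate 2 (-0.0299 to 0.1256), with total counts alone (-0.0851) and on FPKM (-0.0805 and -0.0511). CNOT1 turned with total counts alone (-0.0113) and on FPKM (-0.0104 and -0.0099). The cause of these turns was not tested. Deviations from the group means correlated at 0.0075, 0.0413 and -0.0358 between same-numbered libraries of the groups. Between different-numbered libraries they correlated at -0.0628 to 0.0531. With 3 libraries per group, these values cannot tell whether same-numbered libraries were prepared as pairs. With the replicate block, 6640 of 14250 tested genes passed, with 5 of the 10 and 22 of the 45 other pathway genes. The METTL3 to METTL14, FTO to ALKBH5 and YTHDF3 share comparisons then had an exact sign-flip permutation p of 0.25. That is the smallest p that 3 pairs can give. At these depths METTL14, FTO and YTHDF3 had the fewest counts of the 10.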
